A study of Mus musculus with 8 samples.

Results

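The genes described here are 6 genes of cholinergic interneurons, Chat, Slc18a3, Slc5a7, Lhx8, Isl1 and Ache. They were chosen by symbol, as the probe sets whose platform annotation gives exactly 1 of these names. Each gene had 1 such probe set, so the 6 members are 6 of 35557 probe sets on the array and 6 of the 16342 that were tested. All 6 passed the filter on dim probe sets, a mean log2 value of at least 5.25 over the 8 arrays, the 25th percentile of the probe sets with 1 symbol.

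Cholinergic interneurons are a sparse class of large, tonically firing cells that supply most of the acetylcholine of the striatum. They make acetylcholine with choline acetyltransferase, load it into vesicles with a vesicular transporter and take choline back up from the synaptic cleft after acetylcholinesterase has split the transmitter. The LIM-homeodomain transcription factors Lhx8 and Isl1 specify this class during development. Dopamine from the substantia nigra restrains these cells through D2 receptors, and the balance of dopamine and acetylcholine has long been discussed in parkinsonism.

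RNA came from both striata of 8 male C57BL/6 mice, 6 weeks old, 1 array per mouse and 2 mice in each of 4 groups. The MPTP group received MPTP, a toxin of dopamine neurons, by intraperitoneal injection at 20 mg/kg every 24 h for 4 weeks. The acupoint group received the same MPTP and had needles placed 3 mm deep at GB34 on both sides and 1 mm deep at LR3, in 14 sessions 48 h apart. The non-acupoint group received the same MPTP and the same schedule of needling at the hips (3 mm deep), and the control group received saline injections in place of MPTP. Needled mice were held by hand, and the labels describe no such handling for the MPTP and control groups, so needling and handling cannot be told apart. The comparisons ask what MPTP did to these genes, whether needling moved them and whether the needled groups differed from each other.

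The arrays had similar medians, between 6.02 and 6.12 on the log2 scale. MPTP mouse 1 stood apart from the other 7 arrays. Its correlation with MPTP mouse 2 over the tested probe sets was 0.950, while the pairs of the acupoint, non-acupoint and control groups had 0.989, 0.989 and 0.995. In the MPTP pair 5.07% of the tested probe sets differed by 1 or more, and between 0.00612% and 0.441% did so in the other pairs. Comparisons that include this array are also given without it. With 8 arrays in all, precision is limited by their number and by the spread within pairs, which is estimated over all groups together.

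Chat and Slc18a3 share a locus. In the RefSeq annotation (GRCm38.p6) Slc18a3 lies inside Chat on the same strand, with its start 1059 bases downstream of that of Chat, so RNA from the locus could in principle reach both probe sets. Chat, Slc18a3 and Slc5a7, like Lhx8 and Isl1, had their lowest value in MPTP mouse 1, where Ache had its highest. The promoter windows of Chat, Slc18a3 and Slc5a7 (acetylcholine synthesis, storage and choline uptake) and of Ache are shown from RefSeq. Each runs 5′ to 3′ from 250 bases before the start to 50 after it, at chr14:32465860-32466159 (minus strand, Chat), chr14:32464801-32465100 (minus, Slc18a3), chr17:54298985-54299284 (minus, Slc5a7) and chr5:137288004-137288303 (plus, Ache). Capitals mark TAAT on either strand, the core that many homeodomain proteins bind.
Chat: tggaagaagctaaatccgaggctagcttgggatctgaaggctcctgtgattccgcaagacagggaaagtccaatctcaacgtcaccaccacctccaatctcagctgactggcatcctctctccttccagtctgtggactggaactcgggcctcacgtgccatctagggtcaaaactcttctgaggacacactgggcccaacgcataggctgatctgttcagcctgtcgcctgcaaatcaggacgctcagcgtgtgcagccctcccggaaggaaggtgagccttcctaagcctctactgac
Slc18a3: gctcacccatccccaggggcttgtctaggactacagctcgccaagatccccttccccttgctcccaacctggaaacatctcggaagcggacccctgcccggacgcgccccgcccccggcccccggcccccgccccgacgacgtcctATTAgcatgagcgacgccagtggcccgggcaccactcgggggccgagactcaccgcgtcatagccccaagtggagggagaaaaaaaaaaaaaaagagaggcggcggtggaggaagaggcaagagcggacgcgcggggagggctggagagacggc
Slc5a7: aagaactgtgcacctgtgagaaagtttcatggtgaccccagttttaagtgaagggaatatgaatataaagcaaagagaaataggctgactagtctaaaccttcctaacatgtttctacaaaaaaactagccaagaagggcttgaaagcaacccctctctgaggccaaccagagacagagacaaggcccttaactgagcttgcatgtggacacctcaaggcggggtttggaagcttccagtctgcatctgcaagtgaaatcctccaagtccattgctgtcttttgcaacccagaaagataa
Ache: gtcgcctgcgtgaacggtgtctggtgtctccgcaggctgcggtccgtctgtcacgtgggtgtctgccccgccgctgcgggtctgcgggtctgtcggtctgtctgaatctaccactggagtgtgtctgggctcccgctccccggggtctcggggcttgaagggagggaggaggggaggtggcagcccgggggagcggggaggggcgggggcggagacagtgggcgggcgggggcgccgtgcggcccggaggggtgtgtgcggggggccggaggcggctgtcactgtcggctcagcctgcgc
The Slc18a3 window held 1 TAAT, at position 147 from its 5′ end on the opposite strand, and those of Chat, Slc5a7 and Ache held 0. Of the 2 members not shown, the Isl1 window held 2 and the Lhx8 window 0. Of all 32851 promoter windows of this length, 58.0% held the motif on either strand. GGGCGG, a GC box, stood 4 times in the Ache window and 2 times in that of Slc18a3 on either strand, and in 0 of the other 4 windows, beside 35.7% of all windows. The E-box CACGTG stood 1 time each in the Chat and Ache windows, beside 7.2% of all. GC content was 74.0% for Ache, 67.0% for Slc18a3, 55.7% for Chat and 44.7% for Slc5a7, with a median of 52.7% over all windows. These letters describe the windows, and no binding was measured.

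Chat encodes choline acetyltransferase, which joins acetyl-CoA to choline. Its log2 values were 5.95 and 7.09 in MPTP mice, 6.76 and 7.13 in acupoint mice, 7.17 and 7.07 in non-acupoint mice, and 6.99 and 6.92 in controls. MPTP mouse 1 was the lowest of the 8 arrays, and MPTP mouse 2 lay above both controls, so the groups overlapped. The MPTP mice differed from each other 2.20-fold, and 3.98% of the tested probe sets differed more in size within that pair.

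Slc18a3 encodes the vesicular acetylcholine transporter, which fills synaptic vesicles. Its log2 values were 6.69 and 7.96 in MPTP mice, 7.72 and 7.89 in acupoint mice, 8.08 and 7.79 in non-acupoint mice, and 8.01 and 7.73 in controls. The same MPTP mouse 1 was lowest, 2.42-fold below MPTP mouse 2, which lay within the range of the controls. The other 7 arrays spanned 7.72 to 8.08 and showed no separation by group.

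Slc5a7 encodes the high-affinity choline transporter, the uptake step that limits acetylcholine synthesis. It had the widest spread of the 6 genes, with log2 values of 5.95 and 8.48 in MPTP mice, 8.16 and 8.43 in acupoint mice, 8.43 and 8.15 in non-acupoint mice, and 8.30 and 8.44 in controls. MPTP mouse 2 was the highest of the 8 arrays and MPTP mouse 1 the lowest, a 5.77-fold difference between mice with the same treatment. Within the MPTP pair 0.404% of the tested probe sets differed more in size. The SD of Slc5a7 over the 8 arrays, 0.85, was at the 99.5th percentile of the tested probe sets.

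Lhx8 encodes a LIM-homeodomain factor that directs ventral forebrain precursors to the cholinergic fate. Its log2 values were 6.56 and 7.48 in MPTP mice, 7.49 and 7.36 in acupoint mice, 7.65 and 7.29 in non-acupoint mice, and 7.80 and 7.69 in controls. All 6 MPTP-treated mice lay below both controls, and Lhx8 was the 1 member of the 6 with that pattern, which 3.56% of all probe sets tested showed. The nearest treated mouse was non-acupoint mouse 1, and without MPTP mouse 1 the treated mice still lay between 7.29 and 7.65.

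Isl1 encodes a LIM-homeodomain factor that acts with Lhx8 in these cells and is also used by other striatal neurons during development. Its log2 values were 6.60 and 7.78 in MPTP mice, 7.69 and 7.62 in acupoint mice, 7.91 and 7.53 in non-acupoint mice, and 7.59 and 7.85 in controls. MPTP mouse 1 was again the lowest array, 2.27-fold below MPTP mouse 2. The other 7 arrays spanned 7.53 to 7.91, with the groups overlapping.

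Ache encodes acetylcholinesterase, which ends the signal by splitting acetylcholine and is made by many neurons besides cholinergic ones. Its log2 values were 8.54 and 8.02 in MPTP mice, 8.19 and 8.21 in acupoint mice, 8.29 and 8.45 in non-acupoint mice, and 8.12 and 8.15 in controls. In contrast to the other members it was highest in MPTP mouse 1 and lowest in MPTP mouse 2, a 1.43-fold difference. Both acupoint and both non-acupoint mice lay above both controls, while the MPTP mice lay on either side of them. Of all probe sets, 12.7% lay higher than controls without overlap in acupoint mice and 26.9% in non-acupoint mice. The SD of Ache over the arrays was 0.17, at the 64.7th percentile of the tested probe sets.

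**Figure D1:**
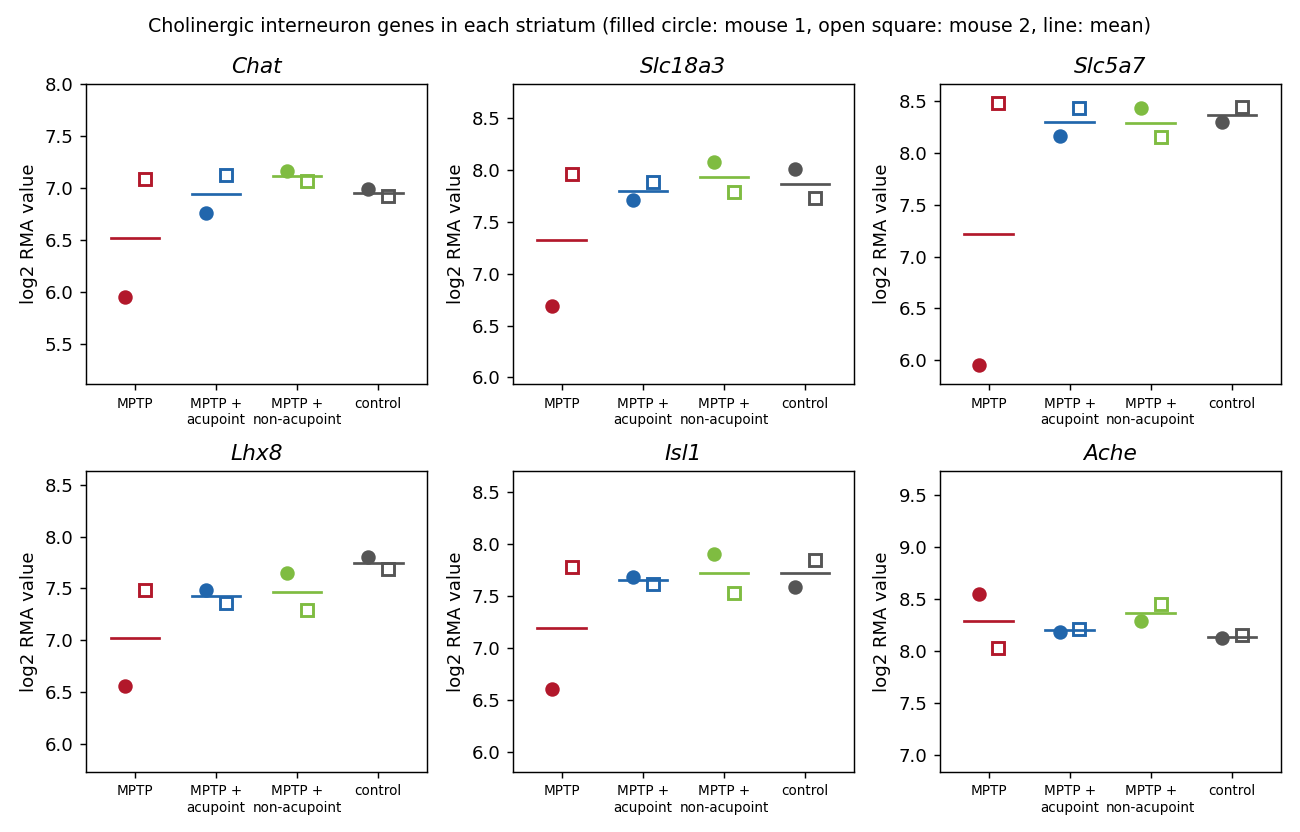
Log2 RMA value (y axis, the same span in every panel) of each of the 6 genes in MPTP, acupoint, non-acupoint and control mice (x axis), with a filled circle for mouse 1, an open square for mouse 2 and a line at the group mean. MPTP mouse 1 is lowest in the 5 panels other than Ache, down to 5.95 for Chat and Slc5a7, and highest for Ache at 8.54.

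The first comparison set MPTP against control. The means of 5 of the 6 genes were lower in the MPTP group and that of Ache was higher, and none of the 6 passed the adjusted threshold of 0.05 in limma, a linear model over all arrays with shrunken variances and Benjamini-Hochberg adjustment. Slc5a7 averaged 7.22 ± 1.79 in MPTP mice and 8.37 ± 0.10 in controls (SD, n = 2 each), a difference of -1.15 (SE 0.69, adjusted p = 0.932 by limma). Lhx8 averaged 7.02 ± 0.65 in MPTP mice and 7.74 ± 0.082 in controls (SD, n = 2 each), a difference of -0.72 (SE 0.28, 95% interval -1.39 to -0.052, adjusted p = 0.932 by limma). It was the 1 member with an unadjusted p under 0.05 (0.0381 by limma) and the 1 member whose groups did not overlap.

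Slc18a3 differed by -0.54 (SE 0.37), Isl1 by -0.53 (SE 0.35) and Chat by -0.44 (SE 0.33), with intervals that included 0. Ache differed by 0.15 (SE 0.17, 95% interval -0.26 to 0.55). The adjusted p of the 6 genes lay between 0.932 and 0.933. Of all features limma called 0% of the 16342 probe sets at the adjusted threshold. An unadjusted p under 0.05 was reached by 652 of them, or 3.99%, and groups without overlap on the lower side were found for 12.1%, beside 1 of 6 members in each case. The median difference of the 6 genes was -0.53, beside 0.015 over all probe sets tested, and 45.7% of all differences were below 0. In tissue RNA, fewer cells of a type and less RNA per cell cannot be told apart.

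The direction for the members depended on which MPTP mouse was counted. Without MPTP mouse 1, the differences were 0.13 for Chat, 0.097 for Slc18a3, 0.11 for Slc5a7, 0.065 for Isl1 and -0.11 for Ache, while Lhx8 stayed below control at -0.26 (SE 0.17). None of these 6 passed. Without MPTP mouse 2, they were -1.01 for Chat, -1.18 for Slc18a3, -2.41 for Slc5a7, -1.18 for Lhx8 and -1.12 for Isl1, and these 5 passed (adjusted p between 0.00151 and 0.0149 by limma), as 1607 of all probe sets did, or 9.83%. Ache stood at 0.41 (adjusted p = 0.0744 by limma). In each of these fits the MPTP group is a single mouse, which is assumed to vary like the other groups.

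**Figure D2:**
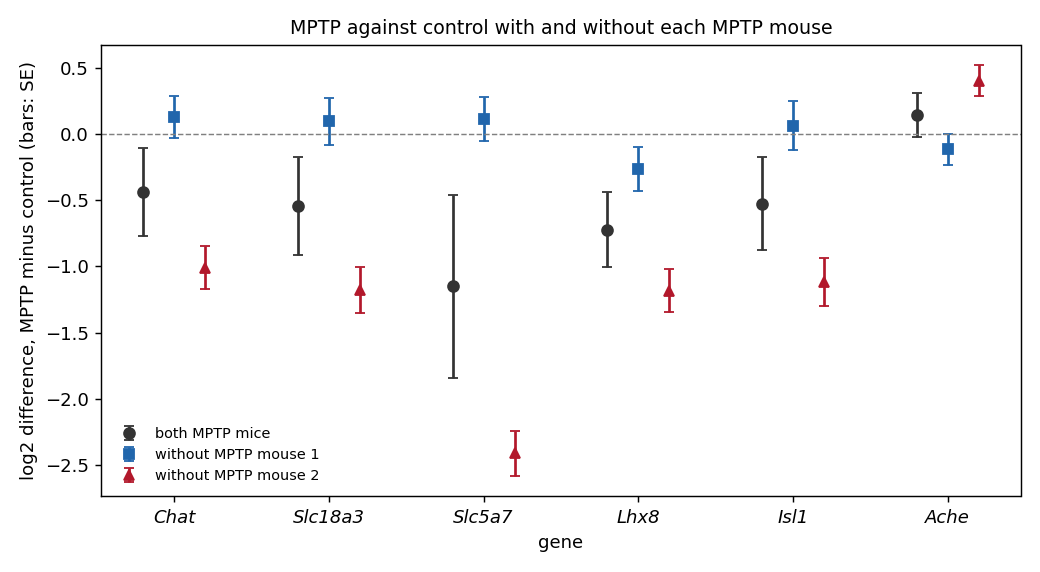
Log2 difference between MPTP and control (y axis, bars are standard errors) for each gene (x axis) with both MPTP mice (black circles), without MPTP mouse 1 (blue squares) and without MPTP mouse 2 (red triangles). Slc5a7 stands at -1.15, 0.11 and -2.41 in the 3 fits, and Lhx8 is the 1 gene below 0 in all of them.

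Acupoint needling was set against MPTP alone to ask whether it moved these genes. The 5 genes other than Ache had higher means in the acupoint group, and 0 of 6 passed. Slc5a7 averaged 8.30 ± 0.19 in acupoint mice and 7.22 ± 1.79 in MPTP mice (SD, n = 2 each), a difference of 1.08 (SE 0.69, adjusted p = 0.902 by limma). The remaining differences were 0.48 for Slc18a3 (SE 0.37), 0.46 for Isl1 (SE 0.35), 0.43 for Chat (SE 0.33), 0.40 for Lhx8 (SE 0.28) and -0.085 for Ache (SE 0.17). For every member the 2 acupoint values lay between those of the 2 MPTP mice or overlapped them, while 27.3% of all probe sets did not overlap, and 59.7% of all differences were below 0.

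No member had an unadjusted p under 0.05, which 3.6% of all probe sets had, and the adjusted threshold was met by 0% (588 of 16342 at an unadjusted p under 0.05, by limma). The median over the members was 0.44, beside -0.036 over all tested. Without MPTP mouse 1 all 6 signs turned, to -0.14 for Chat, -0.16 for Slc18a3, -0.18 for Slc5a7, -0.060 for Lhx8, -0.13 for Isl1 and 0.18 for Ache. Without MPTP mouse 2 the same 5 genes were called, with Slc5a7 at 2.34 (adjusted p = 0.00185 by limma), as were 1453 of all probe sets, or 8.89%.

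Needling at the hips gave differences of like size. All 6 means were higher in the non-acupoint group than in the MPTP group, and 0 of 6 passed. Slc5a7 averaged 8.29 ± 0.19 in non-acupoint mice and 7.22 ± 1.79 in MPTP mice (SD, n = 2 each), a difference of 1.07 (SE 0.69, adjusted p = 0.756 by limma). Slc18a3 differed by 0.61 (SE 0.37), Chat by 0.60 (SE 0.33), Isl1 by 0.53 (SE 0.35), Lhx8 by 0.45 (SE 0.28) and Ache by 0.086 (SE 0.17). The groups overlapped for all 6 genes, as they did for all but 33.1% of the probe sets tested, and 51.5% of all differences were below 0.

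Of all probe sets 0% were called here and 6.58% (1076, by limma) had an unadjusted p under 0.05, beside 0 of the members. Both needled groups were compared with the same MPTP mice, so their differences share those arrays. Without MPTP mouse 1, Chat stood at 0.032 and Ache at 0.35, and the other 4 genes stood between -0.19 (Slc5a7) and -0.015 (Lhx8). Without MPTP mouse 2, 5 genes were called, with Slc5a7 at 2.34 (adjusted p = 0.00309 by limma), as were 794 of all probe sets, or 4.86%.

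Acupoint and non-acupoint needling were then compared with each other, a test of the site itself. The means of 5 genes were lower in acupoint mice and the 6 differences lay between -0.18 and 0.0077, with 0 passing. Chat averaged 6.94 ± 0.26 in acupoint mice and 7.12 ± 0.069 in non-acupoint mice (SD, n = 2 each), a difference of -0.18 (95% interval -0.97 to 0.61). Ache averaged 8.20 ± 0.020 in acupoint mice and 8.37 ± 0.11 in non-acupoint mice (SD, n = 2 each), a difference of -0.17 (SE 0.17, 95% interval -0.57 to 0.23, adjusted p = 0.964 by limma). Ache was the 1 member whose 2 groups did not overlap, beside 24.6% of all probe sets without overlap on the lower side, and 58.3% of all differences were below 0.

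For Slc5a7 the interval of the difference between the sites ran from -1.63 to 1.65, and for Lhx8 from -0.71 to 0.62. Differences of up to these sizes could not be told from 0 in this fit, with 2 mice a group. The fit shares its estimate of spread over all groups, so the MPTP pair widens these intervals too. For Slc5a7 that pair differed by 2.53, the acupoint pair by 0.27 and the non-acupoint pair by 0.28. Over all probe sets 0% were called and 3.22% (526, by limma) had an unadjusted p under 0.05.

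**Figure D3:**
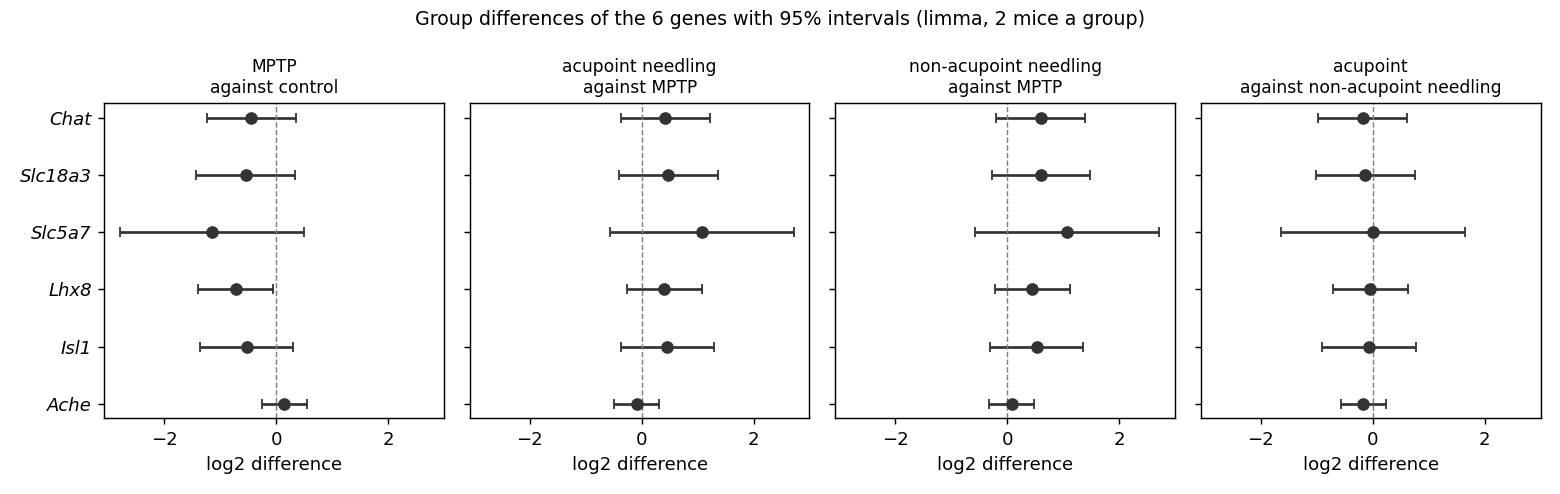
Log2 difference (x axis, points) with its 95% interval (bars) for each of the 6 genes (y axis) in 4 comparisons, from limma over all 8 arrays. Intervals include 0 except for Lhx8 in MPTP against control (-1.39 to -0.052), whose adjusted p was 0.932, and Slc5a7 has the widest ones.

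Each needled group was also set against control, to ask how far its genes of acetylcholine synthesis and transport stood from the levels of saline-injected mice. Acupoint mice differed from controls by -0.014 for Chat, -0.066 for Slc18a3 and -0.070 for Slc5a7, and non-acupoint mice by 0.16, 0.066 and -0.077 for the same genes. Isl1 differed by -0.066 in acupoint mice and by -0.00031 in non-acupoint mice. The sign of Chat in acupoint mice and that of Isl1 in non-acupoint mice turned when each array was centred on its median (0.027 and 0.047). Lhx8 was lower in both, by -0.32 in acupoint mice (SE 0.28) and -0.28 in non-acupoint mice (SE 0.28), and Ache higher, by 0.061 (SE 0.17) and 0.23 (SE 0.17). Over the alternative settings, single leave-outs aside, Lhx8 ran from -0.33 to -0.22 in acupoint mice. In non-acupoint mice it ran from -0.31 to -0.026.

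None of these passed. The smallest adjusted p was 0.9999 for acupoint mice and 0.798, for Ache, for non-acupoint mice. Groups did not overlap for Lhx8 (lower) and Ache (higher) in both comparisons and for Chat (higher) in non-acupoint mice. Of all probe sets, 12.7% lay higher and 21.2% lower without overlap in acupoint mice than in controls, and 26.9% higher and 22.6% lower in non-acupoint mice than in controls. In this fit, whose spread includes the MPTP pair, 0 members had an unadjusted p under 0.05 by limma. Of all probe sets 1.91% and 6.05% had one in these 2 comparisons, and 0% were called.

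Over all 3 MPTP-treated groups against control, Lhx8 averaged 7.30 in treated mice and 7.74 in controls, a difference of -0.44 (SE 0.23, unadjusted p = 0.0989, adjusted p = 0.979 by limma). Its 6 treated and 2 control arrays did not overlap, a pattern that 3.56% of all probe sets showed on the lower side. Slc5a7 differed by -0.43 (SE 0.57), Isl1 by -0.20, Slc18a3 by -0.18, Chat by -0.097 and Ache by 0.15. In this comparison 0% of probe sets were called and 3.38% (552, by limma) had an unadjusted p under 0.05, with 0 of the members. Leaving out 1 array at a time kept Lhx8 between -0.59 and -0.29, and the other alternative settings between -0.45 and -0.23. Without MPTP mouse 1 it stood at -0.29, and the other 5 genes stood between -0.011 (Slc5a7) and 0.094 (Chat), with 0 passing. A moderated F-test over the 4 groups gave adjusted p between 0.923 and 0.926 for the 6 genes, with 0% of probe sets called and 3.71% (607, by limma) at an unadjusted p under 0.05. Its adjusted p without MPTP mouse 1 lay between 0.572 (Ache) and 0.962 (Isl1).

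The order of the group means differed between genes. The MPTP group was last for Chat, Slc18a3, Slc5a7, Lhx8 and Isl1, and control was last for Ache. Non-acupoint mice were first for Chat, Slc18a3 and Ache, and controls were first for Slc5a7, Lhx8 and Isl1. Neighbours in these orders overlapped in all but 3 cases, non-acupoint mice over control for Chat, control over non-acupoint mice for Lhx8 and acupoint mice over control for Ache. None of these 3 differences passed in limma. Of all probe sets, 26.9% lay higher and 22.6% lower without overlap in non-acupoint mice than in controls. In acupoint mice 12.7% lay higher than controls in this way. The order rested on MPTP mouse 1. With MPTP mouse 2 alone in its group, the MPTP group was first for Slc18a3, Slc5a7 and Isl1, next to first for Chat and Lhx8, and last for Ache.

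The 5 genes other than Ache varied together across the 8 arrays, and less so without MPTP mouse 1. Pearson correlations of the 10 pairs lay between 0.82 (Chat and Lhx8) and 0.97 (Chat and Slc18a3), with a median of 0.92. Over the 7 other arrays they lay between -0.18 and 0.71, with a median of 0.40. Chat and Slc18a3, the genes of the shared locus, had the highest value there too, at 0.71, and Slc5a7 and Isl1 followed at 0.65. Correlations with Ache lay between -0.77 and -0.60 over 8 arrays and between -0.55 and 0.23 over 7. Arrays of a group share a treatment, and tissue markers differed between arrays, so these correlations are descriptions.

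**Figure D4:**
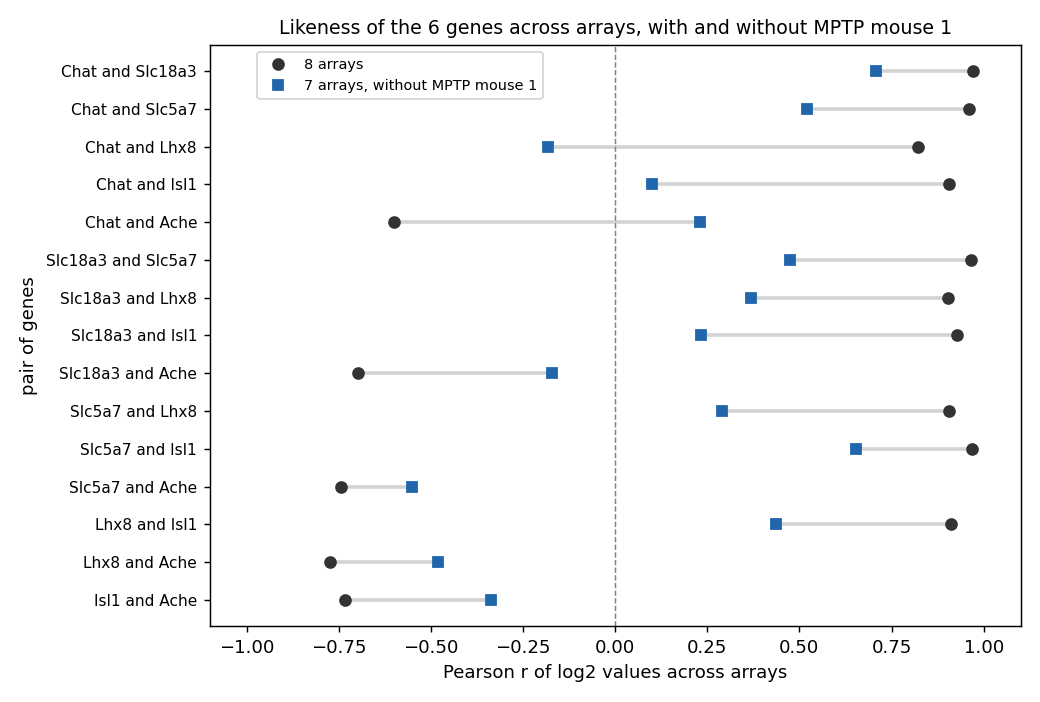
Pearson correlation of log2 values (x axis) for each pair of the 6 genes (y axis) over all 8 arrays (black circles) and over 7 arrays without MPTP mouse 1 (blue squares). The 10 pairs without Ache sit between 0.82 and 0.97 over 8 arrays and between -0.18 and 0.71 over 7.

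Markers of other cells and regions moved with the members in MPTP mouse 1. Relative to the mean of the controls, 16 tested markers of medium spiny neurons, the main projection neurons of the striatum, averaged -1.88 in MPTP mouse 1 and 0.33 in MPTP mouse 2. Over the other 4 treated arrays this mean ran from -0.62 (non-acupoint mouse 2) to 0.19, and over the controls from -0.0084 to 0.0084. Markers of thalamus, septum and pallidum (16 tested) averaged 2.25 in MPTP mouse 1 and 1.48 in non-acupoint mouse 2, and from -0.59 to 0.73 in the other treated arrays. The defining marker Tcf7l2 had log2 values of 10.56 and 7.01 in MPTP mice and 7.51 and 7.59 in controls. The 12 choroid plexus markers averaged between 2.25 and 2.96 in 4 arrays (MPTP mouse 1, acupoint mouse 1 and both non-acupoint mice) and between -0.18 and 0.14 in the other treated ones. Ttr, the transthyretin gene and defining choroid plexus marker, had 13.39 and 8.12 in MPTP mice and 8.63 and 8.88 in controls. Means of the cortex, ependyma, microglia, astrocyte and oligodendrocyte lists in MPTP mouse 1 ran from -0.44 to 0.27. The part of these tissues in the differences of the members was not tested.

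Non-acupoint mouse 2, next in thalamus markers, had Slc5a7 at -0.22, Isl1 at -0.19 and Lhx8 at -0.45 relative to controls, in each case the lowest array after MPTP mouse 1, and Ache at 0.31, the highest after it. Chat, at 0.11, and Slc18a3, at -0.078, were not next to lowest there. Over the 7 arrays without MPTP mouse 1, the correlation with the mean of the thalamus list was -0.86 for Slc5a7 and 0.88 for Ache, and between -0.48 and -0.22 for the other 4 genes. With the mean of the medium spiny neuron list it was 0.77 for Slc5a7, -0.89 for Ache and between 0.11 and 0.33 for the others. In MPTP mouse 1 Slc5a7 stood at -2.41. The D1 receptor gene Drd1, of direct-pathway spiny neurons, had 7.93 and 10.68 in MPTP mice and 10.29 and 10.32 in controls. Chat, Slc18a3, Lhx8 and Isl1 lay between -1.18 and -1.01 there. The signalling gene Ppp1r1b, a marker of medium spiny neurons, had 8.97 and 11.65 in MPTP mice and 11.42 and 11.32 in controls.

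With the mean of the thalamus, septum and pallidum markers as a covariate, 0 members passed in MPTP against control (smallest adjusted p = 0.673), and with the mean of the medium spiny neuron markers 0 passed either (smallest adjusted p = 0.739). In non-acupoint needling against MPTP, 5 of 6 members, all but Ache, had an unadjusted p under 0.05 with either covariate, beside 15.5% and 14.6% of all probe sets, and 0 passed (smallest adjusted p = 0.135 with the thalamus list and 0.112 with the medium spiny neuron list). In the F-test 5 and 4 members did so, beside 10.2% and 9.89% of all probe sets, with 0 passing. Between acupoint and non-acupoint needling 2 and 3 members did so, beside 6.08% and 6.27% of all. For non-acupoint needling against control it was 3 and 3, beside 9.51% and 11.2%. The remaining comparisons had at most 1 such member, beside 5.44% to 8.43% of all. No member passed in any of these fits. With either covariate, all 6 differences in non-acupoint needling against MPTP were above 0. Both marker means had their most extreme value in MPTP mouse 1 (2.25 for thalamus, -1.88 for medium spiny neurons). Both covariates thus lean on that array, and these fits cannot tell tissue apart from treatment. Genes listed for GABA interneurons (13 tested, with Pvalb, Calb2 and Lhx6 also standing in other lists) averaged -0.15 in MPTP mouse 1 and 0.016 in MPTP mouse 2. Within that list Sst, the somatostatin gene, had 9.58 and 10.99 in MPTP mice and 10.77 and 10.79 in controls, while Pvalb, also a thalamic marker, had 10.60 and 8.18 in MPTP mice and 8.60 and 8.48 in controls. Gad2 had 10.69 and 11.68 in MPTP mice and 11.63 and 11.65 in controls. Like Gad1 of that list, it encodes a GABA-synthesising enzyme and is not particular to interneurons. Medial habenula, which also holds cholinergic neurons, was represented by 6 tested markers, with a mean of 0.16 in MPTP mouse 1, 0.63 in non-acupoint mouse 2 and -0.26 to 0.12 in the other treated arrays.

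**Figure D5:**
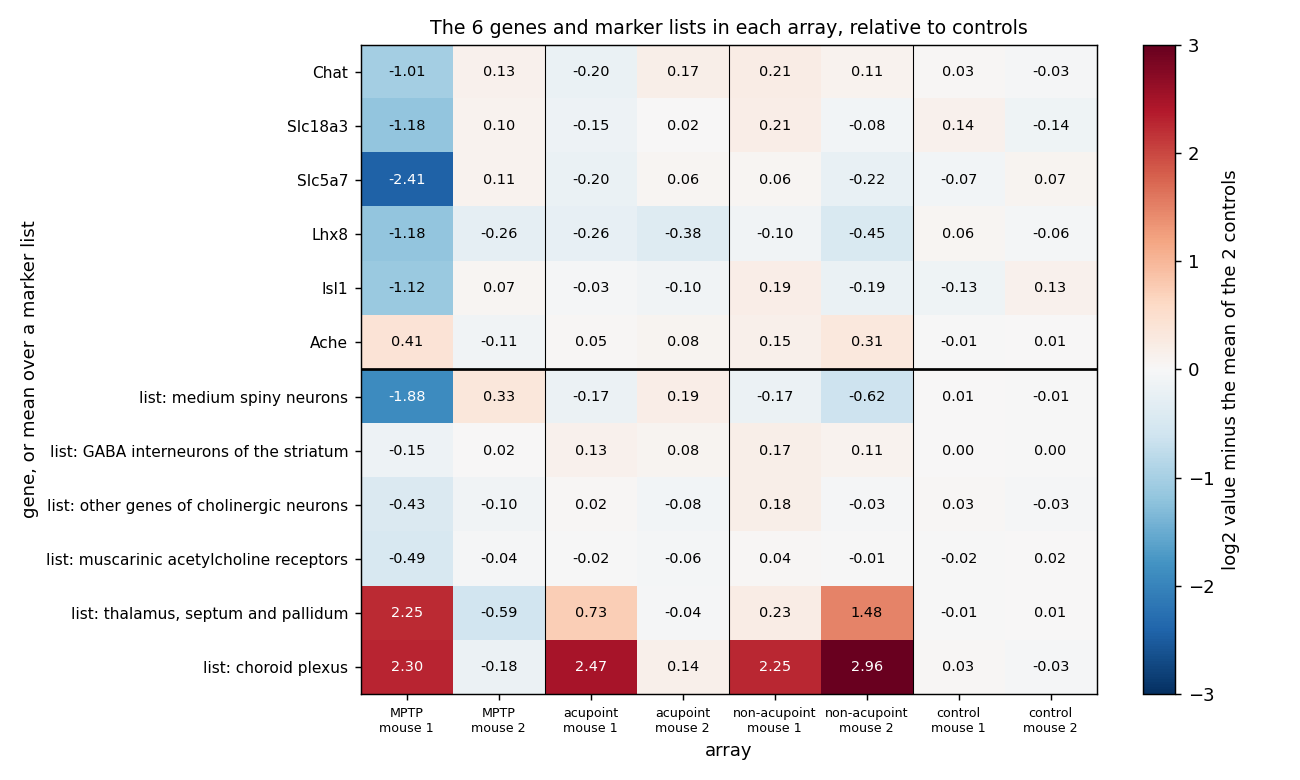
Log2 value minus the control mean (colour and printed number) for the 6 genes and for the means of 6 marker lists (rows) in each array (columns, MPTP, acupoint, non-acupoint and control mice). MPTP mouse 1 combines low values of 5 of the 6 genes (-2.41 to -1.01) and of medium spiny neuron markers (-1.88) with high thalamus (2.25) and choroid plexus (2.30) markers.

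Other genes of cholinergic neurons were examined as a list of 9, of which 8 were tested. In MPTP against control 7 were lower and 1 higher, and 0 passed, with a median of -0.28 beside 0.015 over all probe sets. Without MPTP mouse 1, 5 were lower and 3 higher, with a median of -0.093 beside 0.011 over all. Slc10a4, a vesicular transporter-like protein of cholinergic and monoamine neurons, had log2 values of 5.94 and 7.38 in MPTP mice and 7.35 and 7.62 in controls (difference -0.82, SE 0.41). Ecel1, an endopeptidase-like enzyme, had 7.69 and 8.72 in MPTP mice and 8.81 and 8.80 in controls. Slc17a8, the vesicular glutamate transporter that these interneurons also carry, had 6.32 and 7.44 in MPTP mice and 7.10 and 7.20 in controls, and the substance P receptor gene Tacr1 had 7.19 and 8.25 in MPTP mice and 8.04 and 7.97 in controls. These 4 genes were lowest in MPTP mouse 1.

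The remaining genes of that list did not share this. Ngfr, the low-affinity neurotrophin receptor of basal forebrain cholinergic neurons, had 6.80 and 6.49 in MPTP mice and 6.83 and 6.62 in controls. Gbx2, a homeobox factor of these interneurons and of the developing thalamus, was highest in MPTP mouse 1, at 7.34, against 6.49 in MPTP mouse 2 and 6.54 and 6.23 in controls. Nkx2-1, the ventral forebrain factor, had 6.20 and 6.28 in MPTP mice and 6.62 and 6.30 in controls, and Zic4 had 6.90 and 5.95 in MPTP mice and 6.74 and 6.83 in controls.

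Muscarinic receptor genes, the G protein-coupled receptors of acetylcholine, were all tested, and all 5 were lower in MPTP than in control, with 0 passing and a median of -0.12. When MPTP mouse 1 was left out, 3 were lower and 2, Chrm1 and Chrm4, higher, with a median of -0.044. Chrm1, found on medium spiny and cortical neurons, had 6.85 and 8.39 in MPTP mice and 8.25 and 8.20 in controls. Chrm4, enriched in direct-pathway spiny neurons, had 7.15 and 9.27 in MPTP mice and 8.61 and 8.71 in controls. Both were lowest in MPTP mouse 1 and highest in MPTP mouse 2, as Slc5a7 was. Chrm3 had 8.60 and 8.45 in MPTP mice and 8.59 and 8.70 in controls. Chrm2, the receptor on cholinergic terminals and on many other neurons, was highest in MPTP mouse 1 and lowest in MPTP mouse 2, with 9.35 and 8.05 in MPTP mice and 8.77 and 8.75 in controls.

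Nicotinic receptor subunits, which form ion channels, were tested for 8 of 16 genes, with 3 higher, 5 lower and 0 passing in MPTP against control (median -0.018), and with 2 higher and 6 lower without MPTP mouse 1 (median -0.11). Chrna4 and Chrnb2, which together form the main brain receptor, had 9.93 and 7.67, and 8.58 and 7.70, in MPTP mice, against 7.98 and 7.87, and 7.61 and 7.66, in controls. Both were highest in MPTP mouse 1, and Chrna4 was next highest in non-acupoint mouse 2, at 8.90. Chrna9 differed by -0.10. Genes of acetylcholine breakdown and choline supply (12 of 17 tested) had 5 higher and 7 lower with 0 passing (median -0.015), and the same counts without MPTP mouse 1. Colq, the collagen tail that anchors acetylcholinesterase, differed by 0.20 (SE 0.14), Pcyt1a, an enzyme of phosphatidylcholine synthesis, by 0.19 (SE 0.15), and Slc44a5, a choline transporter-like gene, by -0.17 (SE 0.20).

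LIM-homeodomain factors and their cofactors other than Lhx8 and Isl1 were tested for 15 of 16 genes, with 5 higher, 10 lower and 0 passing in MPTP against control (median -0.18), and the same counts without MPTP mouse 1 (median -0.065). Ldb2, a cofactor that bridges LIM-homeodomain proteins, had 8.21 and 9.07 in MPTP mice and 9.28 and 9.29 in controls. Its values in needled mice, 8.84 to 8.97, were also below both controls, as those of Lhx8 were. All treated mice lay below both controls for 3.56% of all probe sets. Ldb2 differed by -0.65 (SE 0.25, unadjusted p = 0.0341, adjusted p = 0.932 by limma). It was the 1 gene of these 15 with an unadjusted p under 0.05, beside 3.99% of all probe sets. Lmo3, a LIM-only protein, had 8.92 and 11.08 in MPTP mice and 10.79 and 10.89 in controls. Lhx9, used in the thalamus, had 8.04 and 5.57 in MPTP mice and 5.97 and 5.90 in controls. In the comparisons of acupoint and of non-acupoint needling with MPTP, 0 members of these 5 lists of acetylcholine and LIM genes passed.

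Genes of the whole table with the pattern most like the mean of Chat, Slc18a3 and Slc5a7 over the 8 arrays were Ccnd2, a cyclin (r = 0.997), the potassium channel subunit gene Kcng3 (0.992), Sytl5 (0.989), the sestrin gene Sesn3 (0.989), the calcium channel gene Cacna1e (0.988), Naaa (0.987), the guidance cue gene Sema3a (0.986), the transcription factor gene Rfx3 (0.985), Qrfprl (0.983) and Cracdl (0.983). All 10 were lowest in MPTP mouse 1. Over the other 7 arrays their correlations with the same profile ran from 0.55 to 0.92.

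Closest to Lhx8 were Hs3st2 (0.986), Chst1 (0.983), Etv5 (0.981), the activity-dependent factor gene Egr1 (0.975) and Btg1 (0.974), with 0.86 to 0.93 over 7 arrays. All 5 were lowest in MPTP mouse 1 and highest in a control. Closest to Isl1 were Sf3b3 (0.990), Kif27 (0.987), Casd1 (0.986), Sesn3 (0.986) and Gad2 (0.984), with 0.82 to 0.94 over 7 arrays. Closest to Ache were the desaturase gene Scd1 (0.993), Itga3 (0.986), Tcp11l1 (0.986), the glial potassium channel gene Kcnj10 (0.982) and the sodium pump subunit gene Atp1b2 (0.981), with 0.97 to 0.99 over 7 arrays. These 5 were highest in MPTP mouse 1 and lowest in MPTP mouse 2. The genes were picked as the highest of all tested, so their correlations are descriptions.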

How the data were processed

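Per the labels' protocols, biotin-labelled cDNA was made from 300 ng of striatal RNA per mouse for whole-transcript Affymetrix arrays. The authors deposited 1 log2 value per probe set and array, made with Affymetrix Expression Console and RMA per the submitters' processing notes (no version given). RMA sets nearly the same distribution for every array, so a shift of most genes could not be seen. No scanner files were used here, and the genome build is not given in the sources used here. Of 35557 probe sets, 21789 had 1 gene symbol, 1621 several and 12147 none. Of the first, 21698 matched RefSeq (GRCm38.p6) by gene ID, and 0 names were updated.

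Probe sets with 1 symbol and a mean of at least 5.25 (16342, for 14890 genes) were fitted with limma 3.58.1 in R 4.3.3 (lmFit, eBayes, 4 group means over 8 arrays, 4 residual degrees of freedom and 2.94 from the prior). Benjamini-Hochberg adjustment ran over all of them, with a threshold of 0.05. Exact permutation of 2 mice against 2 gives a two-sided p of 0.333 at best. The fit was checked on simulated data with the same spread in all groups and independent noise. That check does not cover an array set apart as MPTP mouse 1 was. Lists used 1 probe set per gene, that with the highest mean. The text names all members, in each list of acetylcholine, LIM and GABA interneuron genes the 3 genes with the largest difference between MPTP and control, the defining markers Drd1, Ppp1r1b, Tcf7l2 and Ttr, and the 10 genes (5 for Lhx8, Isl1 and Ache each) with the highest Pearson correlation among those with an SD of at least 0.2, leaving out gene models, unnamed clones and olfactory and vomeronasal receptors. Slc17a8, Tacr1, Ngfr, Nkx2-1, Zic4 and Chrm2 fall outside that rule and were named after their values were seen. Members and lists were chosen with earlier results of these data known. Alternatives were other filters, probe sets with several or no symbols included, trended or robust shrinkage, other scalings, array weights, a replicate block, marker means as covariates, the 4 arrays compared alone, and arrays left out.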

Additional observations from a re-analysis of the deposited data

How the results depend on the processing

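Across all settings and leave-outs, 782 gene values kept their direction and their side of the threshold, 16 came to pass it and 78 changed sign. All 16 came from the fits without MPTP mouse 2, which leave MPTP mouse 1 as the lone MPTP array, assumed to vary like the other groups. Over the leave-outs the number of members called ranged from 0 to 5 in MPTP against control and in each needled group against MPTP, from 0 to 1 in all MPTP-treated groups against control (Slc5a7) and from 0 to 4 in the F-test. The highest counts, all without MPTP mouse 2, stood beside 9.83%, 8.89% (acupoint), 4.86% (non-acupoint), 0.428% and 3.17% of all probe sets called. The labels do not say whether mouse numbers mark a shared batch. Correlations of same-number deviations between groups lay between -0.49 and 0.40. They cannot decide this, because tissue markers also differed between the mice of a pair. With the replicate block 0 members passed in each comparison, with a smallest adjusted p of 0.945 by limma in MPTP against control. With the medium spiny neuron marker covariate, the sign turned in MPTP against control for Ache (-0.035). In acupoint needling against MPTP, it gave 0.099 for Ache. In acupoint against non-acupoint needling, it gave -0.45 for Slc5a7. For non-acupoint needling against control, it gave 0.36 for Slc5a7 and 0.21 for Isl1. For all MPTP-treated groups against control, it gave 0.10 for Chat, 0.043 for Slc18a3 and 0.00685 for Isl1. With MPTP mouse 1 and non-acupoint mouse 2 left out together, the sign turned in MPTP against control for Chat (0.13), Slc18a3 (0.097), Slc5a7 (0.11), Isl1 (0.065) and Ache (-0.11). In acupoint needling against MPTP, it gave -0.14 for Chat, -0.16 for Slc18a3, -0.18 for Slc5a7, -0.060 for Lhx8, -0.13 for Isl1 and 0.18 for Ache. In non-acupoint needling against MPTP, it gave -0.054 for Slc5a7. In acupoint against non-acupoint needling, it gave -0.13 for Slc5a7. For non-acupoint needling against control, it gave 0.060 for Slc5a7 and 0.19 for Isl1. For all MPTP-treated groups against control, it gave 0.11 for Chat, 0.080 for Slc18a3, 0.035 for Slc5a7 and 0.063 for Isl1. With the thalamus marker covariate, the sign turned in acupoint against non-acupoint needling for Slc5a7 (-0.38). In acupoint needling against control, it gave 0.11 for Chat, 0.074 for Slc18a3, 0.19 for Slc5a7 and 0.062 for Isl1. For non-acupoint needling against control, it gave 0.57 for Slc5a7 and 0.32 for Isl1. For all MPTP-treated groups against control, it gave 0.15 for Chat, 0.094 for Slc18a3, 0.081 for Slc5a7 and 0.0536 for Isl1. With each array centred on its median, the sign turned in acupoint needling against control for Chat (0.027). For non-acupoint needling against control, it gave 0.047 for Isl1. With repeated quantile normalisation, the sign turned in acupoint needling against control for Chat (0.017).

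Sign changes under the leave-outs gave the following ranges. In MPTP against control, Chat from -1.01 to 0.13, Slc18a3 from -1.18 to 0.097, Slc5a7 from -2.41 to 0.11, Isl1 from -1.12 to 0.065 and Ache from -0.11 to 0.41. In acupoint needling against MPTP, Chat from -0.14 to 1.00, Slc18a3 from -0.16 to 1.11, Slc5a7 from -0.18 to 2.34, Lhx8 from -0.060 to 0.86, Isl1 from -0.13 to 1.05 and Ache from -0.34 to 0.18. In non-acupoint needling against MPTP, Slc18a3 from -0.031 to 1.25, Slc5a7 from -0.19 to 2.34, Lhx8 from -0.015 to 0.91, Isl1 from -0.066 to 1.12 and Ache from -0.17 to 0.35. In acupoint against non-acupoint needling, Chat from -0.36 to 0.0059, Slc18a3 from -0.28 to 0.012, Slc5a7 from -0.13 to 0.15, Lhx8 from -0.22 to 0.13 and Isl1 from -0.26 to 0.13. In acupoint needling against control, Chat from -0.20 to 0.17, Slc18a3 from -0.20 to 0.072, Slc5a7 from -0.20 to 0.064 and Isl1 from -0.20 to 0.066. In non-acupoint needling against control, Slc18a3 from -0.078 to 0.21, Slc5a7 from -0.22 to 0.060 and Isl1 from -0.19 to 0.19. In all MPTP-treated groups against control, Chat from -0.29 to 0.094 and Slc18a3 from -0.39 to 0.032. The cause of these sign changes was not tested. With 2 arrays a group, only differences well above the spread within a pair could pass.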
